A study of Bos taurus with 34 samples.

Results

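The miRNAs described here are the 145 rows, of 800 bovine miRNA names counted, whose names run from miR-2286 to miR-2490, with any letter or arm. They were chosen by the number in the name alone, not by any measured value. They were counted by small RNA sequencing of cell-free blood from 17 dairy cows. The 6 healthy cows and the 11 affected by subclinical endometritis (SCE), in which the lining of the uterus is inflamed without clinical signs and which was classed by cytology and biopsy of the endometrium, were each sampled at 2 times after calving. The sample labels call these day 25 and day 45, the series' text gives 21 and 44 days postpartum, and the labels' words are used here. No breed, age or treatment is given in the sources used here. The labels name the material blood serum and the series' text plasma. For healthy cow 3 the day-25 file repeats the day-45 file and was left out. That leaves 33 libraries, with 5 healthy cows at day 25, 6 healthy cows at day 45 and 11 SCE cows at each day.

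A miRNA gene is transcribed as a longer RNA that folds into a hairpin. The enzymes Drosha and Dicer cut the hairpin, and a strand from its 5′ arm (named 5p) or its 3′ arm (named 3p) is loaded onto an Argonaute protein, where bases near its 5′ end, the seed, pair with target mRNAs. miRNA numbers are given in the order in which sequences are registered, so names with close numbers share a time of discovery and not a function. The block described here was registered from cattle sequencing and holds mostly names without a well-known counterpart in other mammals. A name without an arm suffix does not say which arm the counted sequence comes from, and 84 members have no suffix, 30 end in 5p and 31 in 3p.

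Total miRNA counts ranged from 678389 to 28872153 per library, with a median of 15570000 for the healthy libraries of day 25, 16940000 for the healthy libraries of day 45, and 8454000 and 9355000 for the SCE libraries of the 2 days. SCE cow 10 had shallow libraries at both days. At day 25, miR-486, which is plentiful in red blood cells, took 50.3% ± 20.7 of the counts of healthy libraries (SD, n = 5) and 25.4% ± 25.1 of those of SCE libraries (SD, n = 11). At day 45 it took 46.2% ± 21.0 (SD, n = 6) and 31.3% ± 17.1 (SD, n = 11). The blood cell miRNAs miR-451, miR-144, miR-223, miR-126-3p, miR-142-5p and miR-150 were counted in all libraries. So was the muscle miRNA miR-133a. The liver miRNA miR-122 was counted in all libraries but for the SCE libraries of day 45, where 10 of 11 had it. The muscle miRNA miR-1 was counted in 1 library in each of the other 3 groups and in 3 SCE libraries of day 45. A further muscle miRNA, miR-206, had no count in 3 of the 4 groups. Numbers in the library titles do not overlap between healthy and SCE cows, so an order of preparation, if the numbers follow one, cannot be told apart from status.

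The members were scarce. Together they had 230971 of 376907534 counts, which is 0.0613% of all counts, although they are 145 of the 800 names. The median member had a mean of 0.126 CPM (counts scaled to a common library total), against 10.8 CPM for the 361 names up to miR-2283 and let-7. Of the members, 73 (50.3%) stayed under 10 counts in every library, against 15.2% of those earlier names. The miR-2284 and miR-2285 family was about as scarce, with 51.6% under 10 counts and a median of 0.144 CPM. So were names from miR-10000 up, with 54.7% and 0.0597 CPM. Names from miR-2491 up to miR-9999 were less scarce, with 26.8% and 0.403 CPM. Only 7 members had a count in all 33 libraries. Of the rest, 19 never had more than 1 count in any library, and miR-2294, miR-2302 and miR-2395 had none, which over all libraries allows up to 0.00796 CPM for each. That limit takes 3 counts as what a count of 0 allows, and covers counting error only.

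miR-2419-5p alone gave 146048 counts, 63.2% of all member counts, and with miR-2415-3p and miR-2376 it gave 79.0%. Its mean level of 359 CPM placed it 83rd among the 800 names, and it was the only member among the 100 highest. miR-2415-3p followed at 58.7 CPM, miR-2376 at 46.6 CPM, miR-2299-5p at 27.7 CPM and miR-2320-5p at 10.1 CPM. These 5 were the only members above 10 CPM, and 34 members were above 1 CPM. Reads of different miRNAs are ligated and amplified with different yields, so this is an order of reads and not of molecules.

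**Figure D1:**
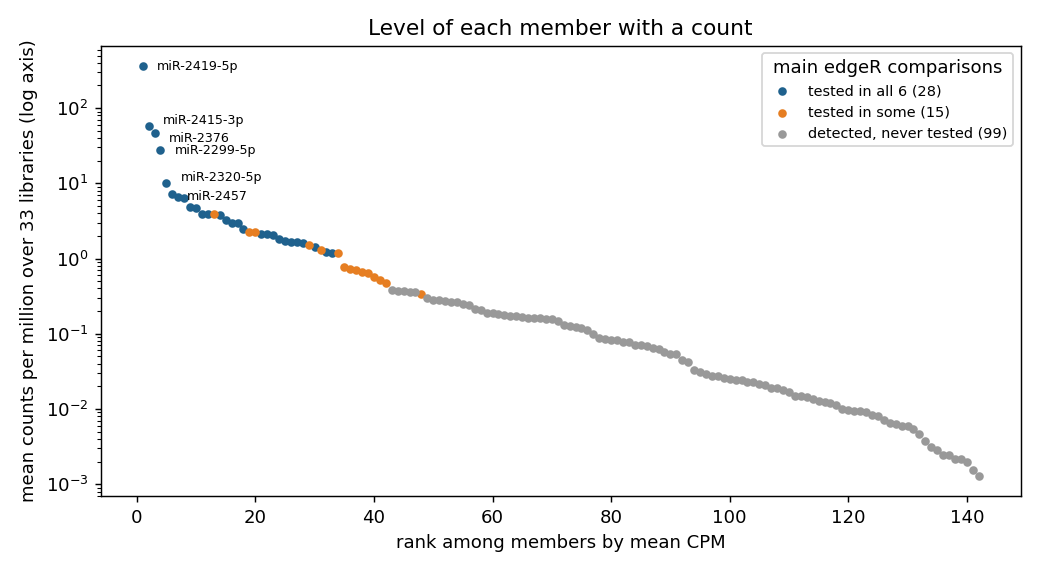
Mean CPM over 33 libraries (log axis) against rank for the 142 members with a count, coloured by whether the filter of the main edgeR fits kept the member in all 6 comparisons (28), in some (15) or in none (99). Levels fall from 359 CPM for miR-2419-5p to under 1 CPM after rank 34.

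The filter on low counts decided which members entered the main edgeR tests. It kept 28 members in all 6 comparisons and 15 in some, and 99 members with counts were in none of these 6 tests, though DESeq2 and a fit without the filter reached many of them. Those 99 held 3179 counts, 1.38% of all member counts. In the shallowest library a count of 0 allows a level of up to 4.42 CPM, and 10 members had a mean above that. In the deepest library the limit is 0.104 CPM, which 76 members exceeded.

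Most members lie inside other genes. RefSeq, on assembly ARS-UCD2.0, held 142 of the 145 names, at 117 loci. Loci of let-7 names were not looked up, so shares given here for the earlier names leave let-7 out. Of these, 100 loci (85.5%) lay within the span of a protein-coding gene, against 53.4% of the loci of the earlier names, 68.0% for miR-2284 and miR-2285, 75% for names from miR-2491 up to miR-9999 and 81.8% for later names. Another miRNA gene stood within 10 kb of 15 member loci (12.8%), against 53.2% of the earlier loci, 7.69% for miR-2284 and miR-2285, 36.1% for names from miR-2491 up to miR-9999 and 6.82% for later names. The clustered exceptions include miR-2443, beside let-7a-3 and let-7b, and miR-2475, beside miR-23b, miR-27b and miR-24-1. Among the 35 loci of tested members, 28 lay in a protein-coding gene. The files were made on another build, UMD 3.1, so no coordinates are given, and the table holds no strand or exons. Whether a member lies in an intron or on the strand of its host was therefore not analysed here.

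Both arms are listed for 28 hairpins, and the arm with more counts was 5p in 12 and 3p in 15, with equal counts in the 1 other, miR-2329. Of the 21 hairpins with at least 50 counts, 7 had over 90% of them from the major arm. miR-2419, which lies between NOD1, an intracellular sensor of bacterial cell wall fragments, and the ubiquitin ligase gene ZNRF2, gave 99.3% of its counts from 5p. miR-2415, in a long non-coding RNA between ST3GAL3 and KDM4A, gave 20053 counts from 3p and 9 from 5p. Some hairpins with fewer counts were nearer to balance, such as miR-2388, with 53.0% from 3p. Among hairpins with both arms tested, the nearest were miR-2411, with 60.5% from 5p, miR-2448, with 62.3% from 3p, and miR-2483, with 62.9% from 3p. These shares are summed over all libraries and differed between the groups. So did the pooled 3p shares of miR-2388, 16.0% in healthy and 50.5% in SCE cows at day 25, and of miR-2431, 91.6% and 65.9%. In counts pooled over the libraries of day 25, the 3p share of miR-2411 was 30.1% in healthy and 52.4% in SCE cows. The arm with more counts was not the same. Healthy cow 2 gave 36 of the 50 healthy 3p counts and 45 of the 116 healthy 5p counts. Its arms were nearer to balance than the healthy pool, so it drew the pooled healthy share towards that of SCE cows. For miR-2448 the 3p share was 88.9% and 58.1%, and for miR-2483 81.0% and 57.7%. The healthy 5p counts of these hairpins were only 7 and 15. At day 45 miR-2411 had more 5p counts in both statuses, with 3p shares of 25.7% in healthy and 45.7% in SCE cows. For miR-2448 they were then 71.4% and 59.0%, and for miR-2483 65.1% and 67.3%. Pooled shares weight deeper libraries more and were not tested. miR-2300a-5p and miR-2300b-3p, whose hairpins both lie in FLT1, a receptor gene for vascular growth factors, had the same 49 counts in the same 11 libraries and cannot be told apart.

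The mean number of members seen per library was higher in SCE cows. At day 25 a mean of 53.8 ± 19.4 members had a count in healthy libraries (SD, n = 5) and 72.0 ± 13.7 in SCE libraries (SD, n = 11). At day 45 the means were 55.7 ± 22.1 (SD, n = 6) and 61.6 ± 21.7 (SD, n = 11). SCE libraries were on average shallower, so the expected number was also computed for a draw of 678389 counts from every library. It was 23.98 ± 5.12 members in healthy cows at day 25 (lowest 17.01, median 23.3, highest 30.7), and 36.4 ± 4.46 in SCE cows at day 25 (lowest 25.4, median 38.1, highest 40.4). At day 45 it was 25.1 ± 7.53 in healthy cows (lowest 14.6, median 25.6, highest 37.1) and 32.8 ± 5.96 in SCE cows (lowest 22, median 32.9, highest 40.0). The groups overlapped at both days.

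The mean share of miR-486 was smaller in SCE libraries, as given above. Whether that share bears on the number of members was not tested. With miR-486 removed, the draw was of 335886 counts, so these numbers also differ in depth from those above. The expected numbers were then 25.8 ± 7.29 in healthy and 31.9 ± 2.83 in SCE cows at day 25. At day 45 they were 24.5 ± 4.81 in healthy and 28.8 ± 4.75 in SCE cows. No test was made of a number summed over members. Counted with a minimum of 10 counts, members per library were 27.6 ± 10.9 and 28.9 ± 11.8 at day 25 in healthy and SCE cows, and 29.2 ± 9.24 and 30.3 ± 10.3 at day 45.

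**Figure D2:**
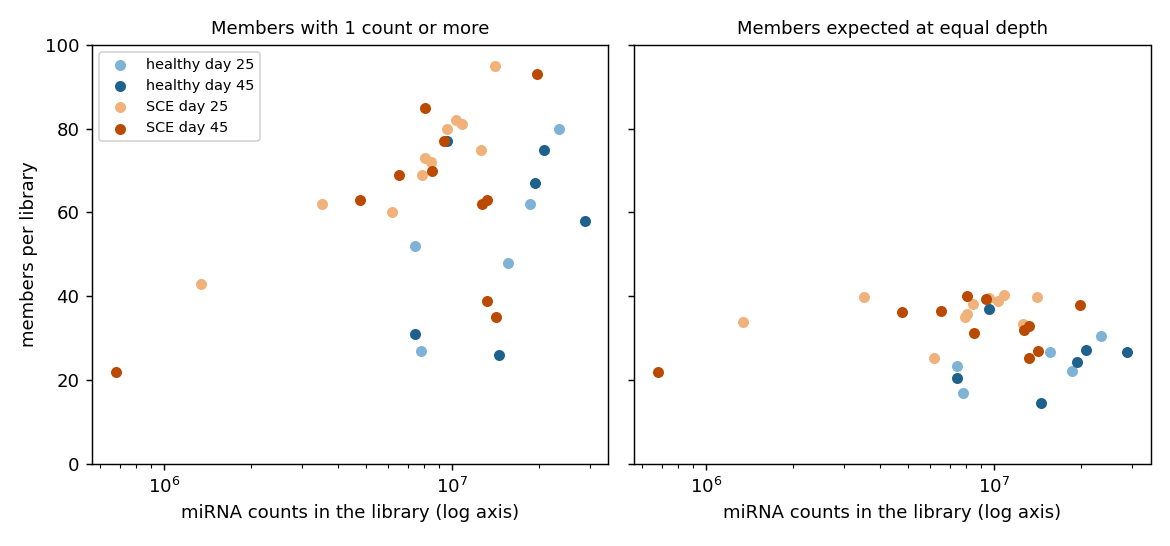
Members per library against the library's miRNA counts (log axis), by status and day, as the number with 1 count or more (left) and the number expected when every library is drawn down to 678389 counts (right). In the right panel most SCE libraries lie above 30 members and most healthy libraries below 30, with overlap.

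The members' share of a library's counts overlapped between the groups. At day 25 it was 0.0637% ± 0.0430 in healthy libraries (SD, n = 5) and 0.0675% ± 0.0355 in SCE libraries (SD, n = 11). At day 45 it was 0.0539% ± 0.0325 (SD, n = 6) and 0.0542% ± 0.0293 (SD, n = 11). miR-2419-5p set much of the spread: it made up between 28.4% and 88.7% of the member counts of a library.

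miR-2419-5p differed more between cows than between the statuses. Levels below are CPM after TMM scaling, which corrects each library's total for the miRNAs that take an unusual share of it. In healthy cows at day 25 miR-2419-5p stood at 1729 CPM in cow 1, 188 in cow 2, 208 in cow 4, 1305 in cow 5 and 209 in cow 6. At day 45 cows 1 and 5 were again high, at 1218 and 1064 CPM, and the other 4 healthy cows lay between 181 and 228 CPM. So cows 1 and 5 stood apart at both samplings.

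In SCE cows miR-2419-5p ran from 83.3 through a median of 141 to 1036 CPM at day 25, and from 80.2 through 222 to 873 CPM at day 45. SCE cow 17 was high at both days, at 430 and 654 CPM, while cow 15 stood at 228 and then 873 CPM and cow 10 at 1036 and then 258 CPM. In the edgeR quasi-likelihood fit, the log2 fold change of SCE over healthy cows was −1.27 (SE 0.63, adjusted p = 0.251) at day 25 and −0.79 (SE 0.54, adjusted p = 0.645) at day 45. Neither passed the threshold, an adjusted p of 0.05 over all miRNAs tested.

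**Figure D3:**
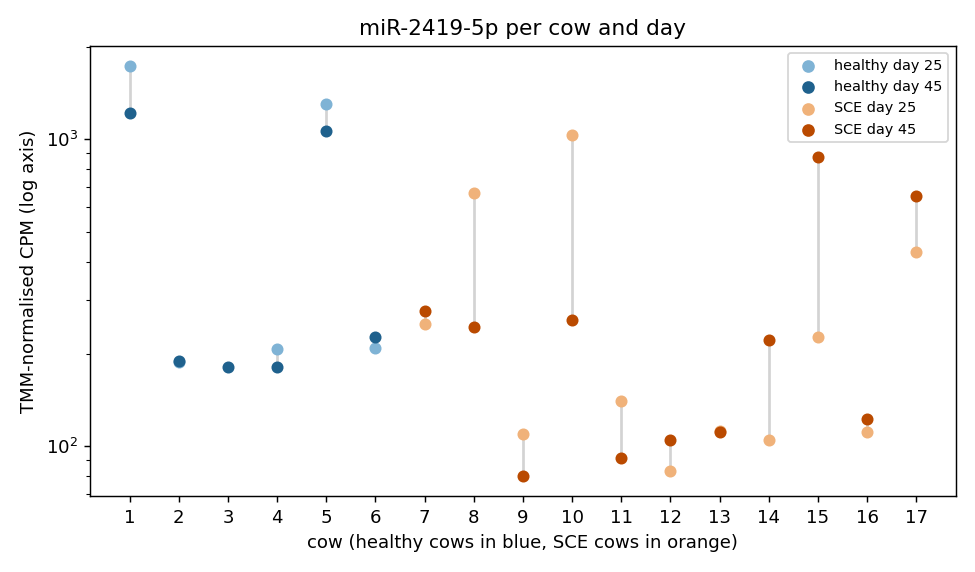
TMM-normalised CPM (log axis) of miR-2419-5p in each cow, with both days of a cow joined by a grey line. Healthy cows 1 and 5 lie at 1064 CPM or more at both days and the other healthy cows between 181 and 228 CPM, while SCE cows spread between 80.2 and 1036 CPM.

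The next most abundant members overlapped between the statuses. miR-2376, in the span of TAPBP, which encodes tapasin, a factor that loads peptides onto MHC class I, had levels of 32.2, 57.3, 22.9, 16.9 and 55.0 CPM in healthy cows 1, 2, 4, 5 and 6 at day 25, and 16.9, 43.6 and 79.7 CPM as the lowest, median and highest of SCE cows. All but 2 of the SCE cows lay within the range of the healthy cows. Its log2 fold change in edgeR was 0.24 (SE 0.41, adjusted p = 0.774). miR-2415-3p lay between 15.3 and 180 CPM in healthy cows at day 25, with a median of 95.1, and between 1.90 and 430 CPM in SCE cows, with a median of 21.7. SCE cow 7 was the only one above every healthy cow, and 9 of the 11 SCE cows were below the healthy median, but the edgeR estimate of −0.61 (SE 0.83, adjusted p = 0.716) did not pass.

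miR-2457, in the span of the organic cation transporter gene SLC22A4, was also uneven among cows. It stood at 45.8, 14.5, 0.137, 20.3 and 10.4 CPM in healthy cows 1, 2, 4, 5 and 6 at day 25, and ran from 0.790 through a median of 2.76 to 29.9 CPM in SCE cows. Healthy cow 4 was below every SCE cow and cow 1 above every SCE cow. Its log2 fold change at day 25 was −1.36 (SE 0.85, adjusted p = 0.366, edgeR).

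The status comparison asks whether cows with SCE carry different circulating miRNAs. In cell-free RNA, more releasing cells and more release per cell cannot be told apart. At day 25 no member passed in edgeR, of 38 tested, and 1 of all 372 miRNAs tested (0.269%) did. At an unadjusted p under 0.05 there were 5 members, or 13.2% of those tested, against 20.2% of all miRNAs. miR-2299-3p, miR-2483-5p and miR-2448-5p were higher in SCE cows among these 5, and miR-2389 and miR-2411-5p lower. For the members that were higher, no healthy library reached the level that the filter asks. They entered the test through SCE libraries alone, so their higher estimates are not independent of the filter. DESeq2 called 4 of the 72 members to which it gave an adjusted p (5.56%, against 2.68% of all 522): miR-2299-3p and miR-2483-5p higher, miR-2389 and miR-2323 lower. miR-2323 had 93 counts in all and was below edgeR's filter. At day 25 healthy cow 4 had 28 counts of it, the other healthy cows at most 4, and SCE cows at most 5. No tested member had values without overlap between healthy and SCE cows, against 0.269% of all miRNAs.

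The tested members were split evenly at day 25, with 18 estimates higher in SCE cows and 20 lower. Their median log2 fold change was −0.05, beside −0.05 over all miRNAs tested, and their median SE was 0.66, beside 0.56. The split depends on scaling. TMM factors averaged 0.694 in healthy and 1.35 in SCE cows at day 25. Scaled to library totals alone, the median of all miRNAs tested moved to 0.88 and that of members to 0.95, with 33 members higher and 5 lower. That fit called 4 members, miR-2299-3p, miR-2448-5p, miR-2483-3p and miR-2483-5p, against 12.9% of all miRNAs. Directions below are relative to TMM scaling.

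**Figure D4:**
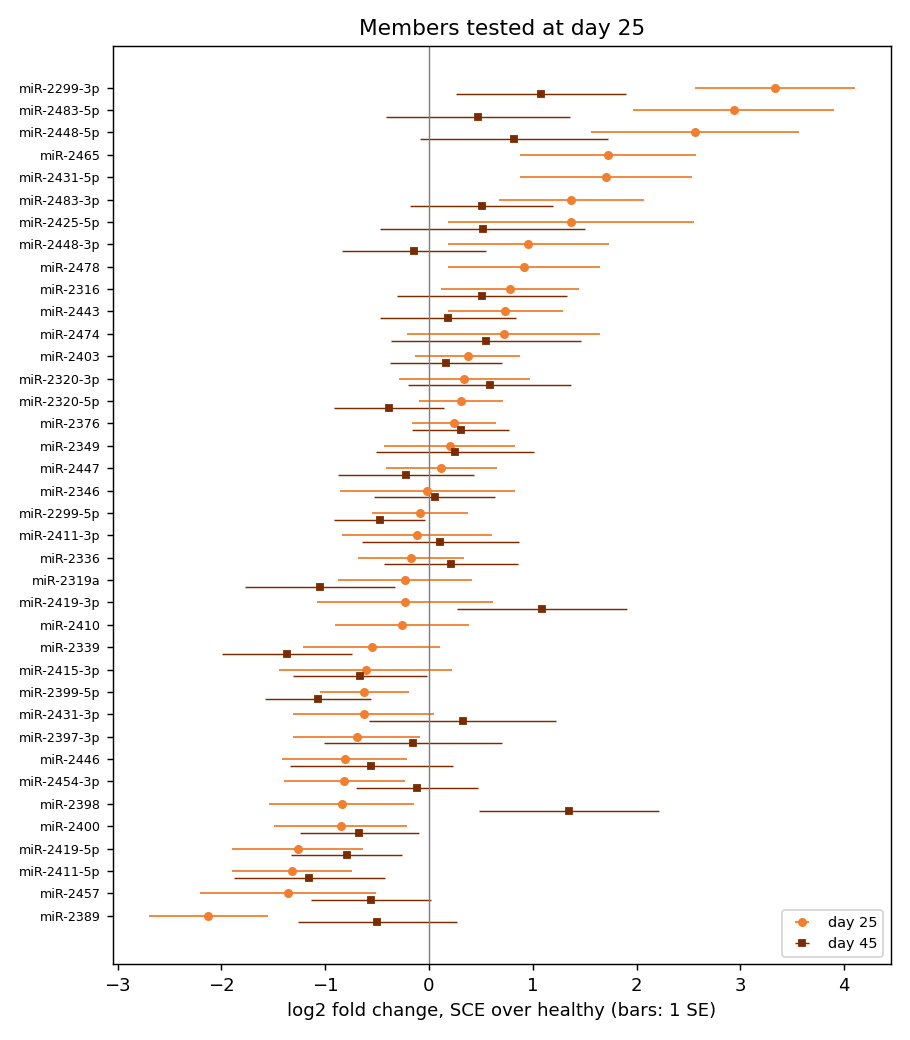
Log2 fold change of SCE over healthy cows with 1 SE in edgeR, for the 38 members tested at day 25 (circles) and, where also tested, at day 45 (squares). miR-2299-3p has the highest estimate at day 25, at 3.33, and miR-2389 the lowest, at −2.13, and none of the members passed the adjusted threshold at either day.

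miR-2299-3p was the member nearest to the threshold, and it had passed the filter through SCE libraries alone. Its hairpin lies in the span of B3GLCT, the gene of a glucosyltransferase that modifies secreted proteins. In healthy cows 1, 2, 4, 5 and 6 at day 25 it had 2, 13, 0, 14 and 0 counts, which is 0.278, 1.13, 0, 0.674 and 0 CPM. In SCE cows it ran from 0.364 through a median of 4.31 to 9.28 CPM, with between 1 and 130 counts. Of the 11 SCE cows, 10 lay above every healthy cow, and the exception was SCE cow 7, with 1 count. The log2 fold change was 3.33 (SE 0.77, adjusted p = 0.0563 in edgeR), and DESeq2 gave 3.27 with an adjusted p of 4.46e-05.

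SCE cow 7 also had the highest miR-486 share of the SCE libraries at day 25, 79.0%. Without SCE cow 7 the adjusted p of miR-2299-3p in edgeR was 0.00963, without SCE cow 8 it was 0.0437, and without SCE cow 13 it was 0.0439. With each of the other 13 cows left out in turn it did not pass, and it reached 0.125 without healthy cow 1. Ratios to miR-23a served as stand-ins for the red cell share of the RNA, which was not itself measured. With miR-486 over miR-23a as a covariate, the log2 fold change was 2.21 and the adjusted p 0.276 in edgeR. With miR-451 over miR-23a they were 2.98 and 0.0816. Over all alternatives the adjusted p ranged from 4.46e-05 to 0.276, and the estimate stayed above 0.

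The partner arm did not follow. miR-2299-5p, the major arm, stood at 10.4, 12.3, 43.4, 17.4 and 42.8 CPM in healthy cows 1, 2, 4, 5 and 6 at day 25, and ran from 7.37 through a median of 24.5 to 42.5 CPM in SCE cows. The ranges overlapped almost wholly, and the log2 fold change was −0.09 (SE 0.46, adjusted p = 0.927 in edgeR). The 3p share of the hairpin's counts, which needs no scaling between libraries, was computed for each library. It was 2.60%, 8.44%, 0%, 3.72% and 0% in healthy cows 1, 2, 4, 5 and 6, and ran from 2.22% through a median of 16.0% to 36.9% in SCE cows, on 35 or more counts each.

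Again 10 of the 11 SCE cows lay above every healthy cow, with SCE cow 7 the exception. This share was examined after the values of both arms were seen, and is given without a test. At day 45 the shares overlapped more, from 0% through 3.24% to 15.7% in healthy cows and from 0% through 9.48% to 43.6% in SCE cows. The level of miR-2299-3p at day 45 was 0.622, 0, 4.41, 0.960, 0.779 and 1.63 CPM in healthy cows 1 to 6, and from 0 through 2.40 to 7.85 CPM in SCE cows. Only 3 SCE cows then lay above healthy cow 3, the highest of its group, and the log2 fold change was 1.08 (SE 0.82, adjusted p = 0.671 in edgeR).

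**Figure D5:**
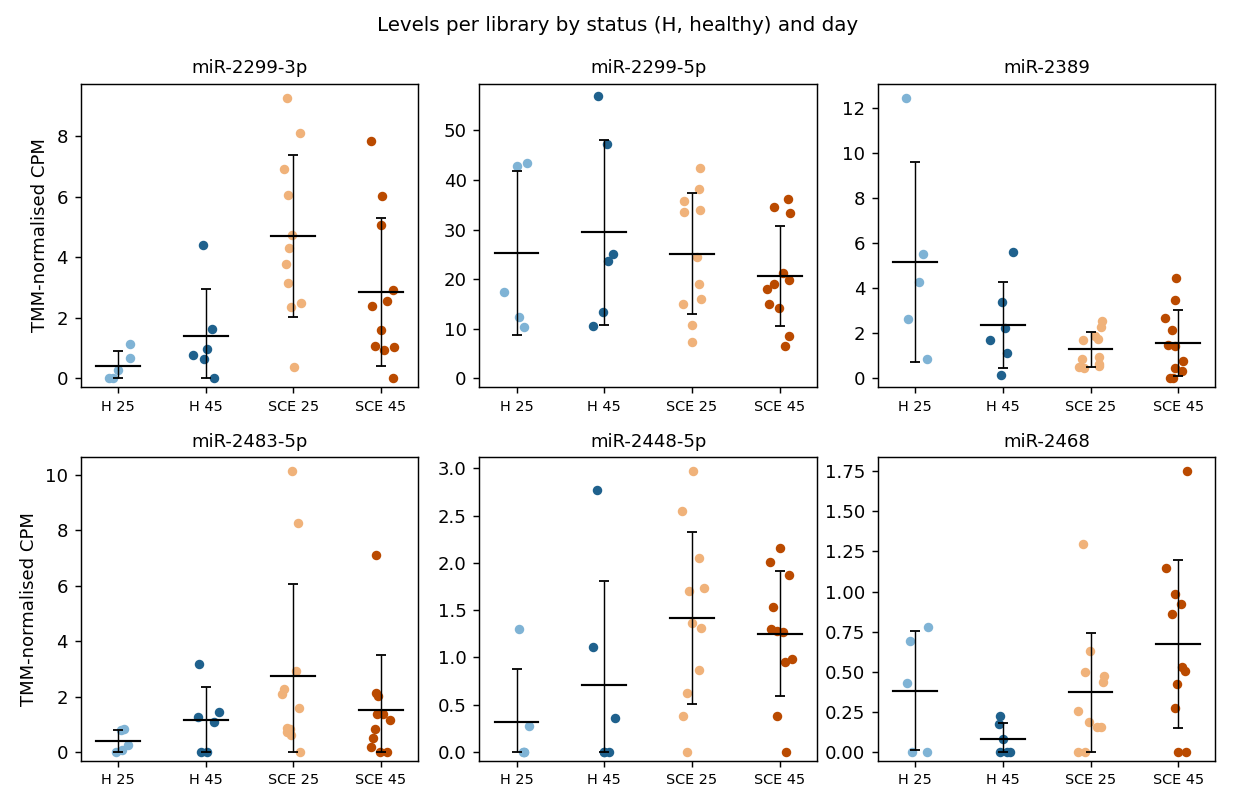
TMM-normalised CPM per library of 6 members, for healthy (H) and SCE cows at day 25 and day 45, with the mean and 1 SD (cut at 0 below). miR-2299-3p is higher in 10 of 11 SCE cows than in any healthy cow at day 25, miR-2299-5p overlaps in all groups, and miR-2468 is higher in 9 of 11 SCE cows than in any healthy cow at day 45.

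miR-2389 had the lowest estimate at day 25. It lies where the spans of C25H7orf50 and the receptor gene GPR146 overlap. Healthy cows 1, 2, 4, 5 and 6 had 2.64, 4.27, 5.50, 0.866 and 12.5 CPM, and SCE cows ran from 0.474 through 0.948 to 2.55 CPM. Healthy cows 1, 2, 4 and 6 lay above every SCE cow, and healthy cow 5 within the SCE range. The log2 fold change was −2.13 (SE 0.57, adjusted p = 0.0787 in edgeR) and −2.18 with an adjusted p of 0.0164 in DESeq2. In edgeR the adjusted p was 0.0440 without healthy cow 5, 0.0442 without SCE cow 7, at least 0.0527 with each of the other 14 cows left out in turn, and 0.344 with the miR-486 ratio as a covariate, and over all alternatives it ranged from 0.0164 to 0.344. At day 45 healthy cows ran from 0.163 to 5.60 CPM and SCE cows from 0 to 4.43 CPM, which overlapped, with an estimate of −0.50 (SE 0.77, adjusted p = 0.868 in edgeR).

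Both arms of miR-2483, in the span of the teneurin gene TENM1, had estimates above 0 at day 25. miR-2483-5p had 0.833, 0.0871, 0, 0.241 and 0.778 CPM in healthy cows 1, 2, 4, 5 and 6, and ran from 0 through 1.58 to 10.1 CPM in SCE cows. Of the SCE cows, 8 of 11 lay above every healthy cow, and cows 15 and 16 were highest. Its log2 fold change was 2.94 (SE 0.97, adjusted p = 0.186 in edgeR, 0.0333 in DESeq2). With the miR-486 ratio as a covariate it was 1.65, and the adjusted p ranged from 0.027 to 0.514 over all alternatives. miR-2483-3p, the arm with more counts, had an estimate of 1.37 (SE 0.70, adjusted p = 0.257 in edgeR), and 5 SCE cows lay above every healthy cow. At day 45 the estimates were 0.48 for miR-2483-5p and 0.51 for miR-2483-3p, with adjusted p-values in edgeR of 0.896 and 0.830.

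miR-2448-5p, from a hairpin between CC2D2A and FBXL5, was counted in 2 of 5 healthy cows at day 25 and in 10 of 11 SCE cows. Healthy cows 1 and 6 had 0.278 and 1.30 CPM and the other 3 had none, while SCE cows ran from 0 through 1.37 to 2.97 CPM. All healthy counts were 5 or fewer, so the estimate of 2.56 (SE 1.0, adjusted p = 0.186 in edgeR) rests on few reads, and 7 SCE cows lay above healthy cow 6. Without healthy cow 6 the estimate was 4.60, and over each cow left out in turn it ran from 2.03 to 4.60. The other arm, miR-2448-3p, had an estimate of 0.96 (SE 0.78, adjusted p = 0.508 in edgeR).

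miR-2411-5p, in the span of UBAP2L, had 2.50, 3.92, 2.75, 1.54 and 0.259 CPM in healthy cows 1, 2, 4, 5 and 6 at day 25, and from 0 through 0.681 to 2.55 CPM in SCE cows. Healthy cow 6 lay low among the SCE cows and only healthy cows 2 and 4 lay above all of them. Its estimate was −1.32 (SE 0.58, adjusted p = 0.220 in edgeR), while miR-2411-3p stood at −0.12 (SE 0.73, adjusted p = 0.936 in edgeR).

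At day 45 no member passed in edgeR, of 37 tested, nor did any of all 382 miRNAs (0%). An unadjusted p under 0.05 was found for 3 members (8.11%), against 10.2% of all miRNAs: miR-2468 higher in SCE cows, miR-2339 and miR-2399-5p lower. DESeq2 called none of 120 members, against 0.134% of all miRNAs. No member and no other tested miRNA (0%) had groups without overlap. Of the members, 21 had estimates above 0 and 16 below, with a median of 0.16 beside 0.11 over all miRNAs. On library totals alone the split was 31 to 6 and the median of all miRNAs 0.71, and no member was called, against 0.262% of all miRNAs.

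miR-2468, in the span of SCRG1, a gene first described in scrapie-infected brain, was near the limit of counting at day 45. Healthy cows 1 to 6 had 0, 1, 0, 3, 0 and 1 counts, at most 0.222 CPM, and SCE cows ran from 0 through 0.531 to 1.75 CPM with at most 32 counts. Of the 11 SCE cows, 9 lay above every healthy cow, and SCE cows 10 and 17 had no count. The estimate was 3.16 (SE 1.0, adjusted p = 0.277 in edgeR). No healthy library reached the level that the filter asks. SCE libraries alone brought miR-2468 into the test, so its higher estimate is not independent of the filter. At day 25 the filter left it out: healthy cows then stood at 0.694, 0, 0, 0.433 and 0.778 CPM and SCE cows between 0 and 1.30 CPM, so the groups overlapped.

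miR-2339, in the span of ELAC2, which encodes the enzyme that trims the 3′ ends of tRNAs, stood at 3.73, 1.57, 7.83, 2.44, 3.46 and 1.22 CPM in healthy cows 1 to 6 at day 45. SCE cows ran from 0 through 1.28 to 2.54 CPM. Healthy cows 1, 3 and 5 lay above every SCE cow, and the log2 fold change was −1.37 (SE 0.63, adjusted p = 0.460 in edgeR), or −0.81 without healthy cow 3. miR-2399-5p, in the span of the RNA-binding protein gene RBPMS, had 4.09, 2.97, 17.3, 5.47, 11.5 and 15.0 CPM in the same healthy cows and from 0 through 3.78 to 10.2 CPM in SCE cows. Healthy cows 3, 5 and 6 lay above every SCE cow, and the log2 fold change was −1.07 (SE 0.51, adjusted p = 0.460 in edgeR), or −0.69 without healthy cow 3.

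With the counts of each cow summed over its days, edgeR called no member of 42 tested, against 0.239% of all miRNAs. At an unadjusted p under 0.05 there were 6 members (14.3%), against 16.5% of all miRNAs. miR-2468 and miR-2299-3p were higher in SCE cows, and miR-2411-5p, miR-2399-5p, miR-2339 and miR-2400 lower. miR-2299-3p had an estimate of 1.62 (SE 0.56, adjusted p = 0.191 in edgeR), with an adjusted p of 0.0325 without healthy cow 3 and a range from 0.021 to 0.989 over all alternatives. miR-2468 had 1.87 (SE 0.62, adjusted p = 0.191 in edgeR), and it again passed the filter through SCE cows alone. miR-2400, in the span of the histone methyltransferase gene NSD3, had −0.97 (SE 0.43, adjusted p = 0.262 in edgeR). miR-2411-5p had −1.54 (SE 0.56, adjusted p = 0.191 in edgeR), or −0.72 without healthy cow 3.

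DESeq2 called 2 of the 17 members it adjusted in the summed counts, miR-2299-3p higher and miR-2399-5p lower, against 5.24% of all miRNAs. Of the 42 members tested in edgeR, 23 had estimates above 0 and 19 below. On library totals alone the split was 35 to 7 and the median of all miRNAs moved from 0.04 to 0.77. That fit called miR-2299-3p, miR-2409 and miR-2468, against 15.3% of all miRNAs. The summed comparison uses the same libraries as the 2 single days and is not separate evidence.

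Between the days, no member passed in edgeR in either status. The fits between days and of the difference of the day effect take both libraries of a cow as unrelated. With the cow as a block, no member passed either. In healthy cows 30 members were tested and none reached an unadjusted p of 0.05, against 2.9% of all miRNAs, and none passed the adjusted threshold in edgeR or DESeq2 or lacked overlap, against 0% of all miRNAs for each. In SCE cows 33 members were tested and miR-2447 alone had an unadjusted p under 0.05 (3.03%, against 4.05% of all miRNAs). The adjusted threshold was passed by 0% of all miRNAs in edgeR and DESeq2, and 0% lacked overlap. miR-2447 lies in the span of LIN54, a gene of a complex that represses cell cycle genes. It ran from 1.144 through 3.43 to 12.7 CPM in SCE cows at day 25 and from 0 through 2.53 to 4.83 CPM at day 45, and was lower at day 45 in 8 of the 11 cows. The log2 fold change of day 45 over day 25 was −0.92 (SE 0.45, adjusted p = 0.705 in edgeR), and −0.47 without SCE cow 7.

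Most members had estimates below 0 between the days in SCE cows. Of the 33 tested, 26 were lower at day 45 and 7 higher, with a median of −0.30 beside −0.11 over all miRNAs. With the cow as a block, 28 were lower and 5 higher. Other classes leaned the same way. Lower were 15 of 19 names from miR-10000 up (median −0.37) and 22 of 31 of miR-2284 and miR-2285 (median −0.19). For names from miR-2491 up to miR-9999 it was 17 of 25 (median −0.11), and for the earlier names 122 of 238 (median −0.04). This is a description of estimates that did not pass one by one. The difference of the day effect between the statuses was tested in 42 members, and none passed in edgeR or DESeq2, against 0% of all miRNAs. miR-2299-3p alone had an unadjusted p under 0.05 (2.38%, against 1.72% of all miRNAs), with an estimate of −2.31 and an adjusted p of 0.988 in edgeR.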

How the data were processed

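Small RNA was sequenced from cell-free blood of 17 cows. The authors deposited raw counts, whole numbers for each mature miRNA, in a separate file for every library. Per the submitters' processing notes, bcl2fastq 2.17.1.14, genome build UMD 3.1 and DESeq2 were used. Not given in the sources used here are the aligner, the counter, how it treats reads with several matches, and the annotation version. Per the labels' protocols, adapters were ligated to both ends and the product amplified by PCR. No molecular identifiers are named, so limits from counts cover counting error only.

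Files were joined by name, and 33 libraries were used. Members were tested in a fit of the whole table with edgeR 4.0.16 (R 4.3.3), by its two-sided quasi-likelihood F test after TMM scaling and filterByExpr at its defaults, and p-values were adjusted by Benjamini-Hochberg over every miRNA in the fit. SE is the absolute log2 fold change divided by the square root of F. DESeq2 1.42.0 was run beside it. Mean CPM used for ranks has library totals as its denominator, and levels by cow use TMM. The fitting code was tested on simulated data. Status was compared at each day and on counts added up within a cow, where healthy cow 3 has 1 library. miRNA sequences were not used here.

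Named members are the 12 highest in mean CPM, the 4 of lowest unadjusted p in each of the 6 comparisons, and members with both arms tested. miR-2323, miR-2329, miR-2440, miR-2443, miR-2475, the miR-2300 pair and the 3 members without a count were named after their values were seen. Members and lists were chosen with earlier results of these data known.

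The same cow gave both days, so the cow number pairs libraries. Over 406 miRNAs, a cow's deviations at its 2 days had a median r of 0.253 in the 16 cows with both days (range −0.251 to 0.80, over 0.1 in 11 cows), and −0.0346 between cows. Blocking on the cow was an alternative, as were other scalings, filters, covariates and leaving out each cow. Scaling to library totals and drawing without miR-486 were added after the data were seen.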

Additional observations from a re-analysis of the deposited data

Results flagged for a closer look

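Among 64 sets of values, each from 1 healthy group, 11 (17.2%) held a cow far apart from the others by Dixon's criterion at 95%. That criterion flags about 1 in 20 sets by chance only where values are normally distributed. It was applied here to untransformed CPM, and many of these levels were skewed towards high values. The share flagged therefore cannot be compared with 1 in 20. All levels are TMM-normalised CPM. The groups of SCE cows are too large for this criterion. In healthy cow 3 at day 45, 4 members stood apart: miR-2299-3p at 4.41 CPM, miR-2411-5p at 12.4, miR-2431-3p at 4.24 and miR-2448-3p at 6.53. Healthy cow 4 at day 25 stood apart in miR-2346 at 21.98 CPM and miR-2398 at 7.83. Healthy cow 2 at day 25 stood apart in miR-2411-3p at 3.14 CPM and miR-2431-3p at 8.88. Healthy cow 5 stood apart in miR-2336 at day 25, at 17.5 CPM, and in miR-2419-3p at day 45, at 4.82. Healthy cow 6 at day 25 stood apart in miR-2448-5p, at 1.30 CPM. Each of these cows was above the others of its group.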

How the results depend on the processing

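Alternatives were followed for 24 log2 fold changes, those of the 4 members with the lowest unadjusted p in each of the 6 comparisons. Of their 502 alternative values, none changed direction, 481 kept their side of the threshold and 21 passed it where the reported fit did not. The 24 were picked by p in these same libraries, so a change of direction was unlikely from the start. The kept directions say nothing about the other members. At day 25 the reported fit called 0 of 38 members and 1 of all 372 miRNAs. DESeq2 called 4 of 72 members and 14 of all 522. Median-ratio size factors called 1 member and 4 of all 372, and library totals 4 members and 48 of all 372. With no filter 2 of 135 members were called, and 6 of all 752. These 2 were miR-2299-3p and miR-2440, the latter counted in 7 libraries, with 52 of its 74 counts in 1 of them. A filter of 5 CPM called 1 of 15 members and 2 of all 270. With the log2 library total as a covariate 2 members and 8 of all 372 were called. The miR-451 ratio, the miR-486 ratio and all libraries in 1 fit called 0 members, and 2, 1 and 2 of all miRNAs. With each cow left out, 0 to 2 members and 0 to 7 of all miRNAs were called. Over both days the reported fit called 0 of 42 members and 1 of all 418 miRNAs. DESeq2 called 2 of 17 members and 15 of all 286, and library totals 3 members and 64 of all 418. The other scalings, filters and covariates called 0 members. With each cow left out, 0 to 1 members and 0 to 10 of all miRNAs were called. For the difference of the day effect, 1 of 142 members was called with no filter, miR-2440, and 1 of all 794. With the cow as a replicate block, 0 members were called between days in either status or for the difference, but the split of estimates in healthy cows turned from 12 higher and 18 lower to 18 and 12. In SCE cows it was 5 and 28. The causes of these moves were not tested.

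Members per library, in the order healthy day 25, healthy day 45, SCE day 25 and SCE day 45, were 53.8, 55.7, 72.0 and 61.6 as reported, 27.6, 29.2, 28.9 and 30.3 with at least 10 counts, 23.98, 25.1, 36.4 and 32.8 at equal depth and 25.8, 24.5, 31.9 and 28.8 at equal depth outside miR-486. Without SCE cow 10 the SCE values were 74.9 and 65.6. Their share of counts, in the same order, was 0.0182%, 0.0190%, 0.0300% and 0.0238% without miR-2419-5p and 0.170%, 0.102%, 0.105% and 0.0852% of counts outside miR-486. Without SCE cow 10 it was 0.0598% and 0.0550% in SCE cows. The main edgeR filter left out 99 members with counts.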
